A study of Mus musculus with 6 samples.

Results

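The 50 genes described here make the proteins that copy chromosomal DNA, supply deoxynucleotides and assemble new chromatin. They were taken by name: a list of replication and nucleotide genes was matched to the gene names that the array files give for non-control probes. No measured value entered the match, but the list was chosen with earlier results of these data known. All 50 had a probe on the array (80 probes), among 27376 named genes, and all 50 were among the 16416 genes that passed the filter on dim probes. The RNA came from liver CD8+ T cells isolated by sorting and was read with 1-colour (Cy3) Agilent arrays, 1 per sample. The study set 3 TGC3 samples (dnTGFβRII CXCR3-/-) against 3 TG samples (dnTGFβRII), all from female C57BL/6 mice aged 13 to 14 weeks, to ask what the chemokine receptor CXCR3 does in CD8+ T cell activation and proliferation. Both groups carry dnTGFβRII, a dominant-negative form of the type II TGF-β receptor, so that TG samples are not wild type, and no sample without this transgene was analysed here. The labels name neither the promoter that drives the transgene nor the part of Cxcr3 that was deleted, and they do not say whether a sample was 1 mouse or a pool.

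Before a cell divides, the origin recognition complex marks the sites where DNA synthesis starts, and CDC6 and CDT1 help to load the MCM helicase there. A kinase made of CDC7 and DBF4, with CDC45 and the GINS complex, turns the helicase on. Polymerase alpha with primase then starts each strand, polymerases delta and epsilon extend it on the PCNA clamp, and FEN1 and ligase 1 join the fragments of the lagging strand. Ribonucleotide reductase, thymidylate synthase and thymidine kinase supply the deoxynucleotides, and much of this gene set is known to be transcribed as cells enter S phase. Activated CD8+ T cells are known for rapid division.

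Because many of these genes moved together, their promoters are shown where RefSeq (GRCm38.p6) gave the 250 bases before a start site, which it did for 42 of the 50 genes (51 windows). These windows were searched on both strands for the letters of an E2F site (TTTGGCGC, TTTCCCGC, TTTGCCGC or TTTCGCGC), of a CCAAT box (CCAAT) and of a CHR element (TTTGAA). Matches to different motifs overlapped 0 times. In the 4 windows below, printed 5′ to 3′ on the gene's strand, capitals mark E2F and CCAAT letters on either strand. They were picked to set 3 genes that were higher in TGC3 (Rrm2, Mcm5 and Pola1) beside 1 that did not pass the test (Mcm6).
Rrm2, chr12:24708004-24708253, plus strand: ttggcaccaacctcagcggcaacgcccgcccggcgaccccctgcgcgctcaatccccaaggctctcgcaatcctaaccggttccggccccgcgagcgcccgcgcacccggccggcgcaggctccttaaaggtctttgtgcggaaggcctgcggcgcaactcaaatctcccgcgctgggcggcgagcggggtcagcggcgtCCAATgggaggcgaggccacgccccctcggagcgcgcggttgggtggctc
Mcm5, chr8:75109259-75109508, plus strand: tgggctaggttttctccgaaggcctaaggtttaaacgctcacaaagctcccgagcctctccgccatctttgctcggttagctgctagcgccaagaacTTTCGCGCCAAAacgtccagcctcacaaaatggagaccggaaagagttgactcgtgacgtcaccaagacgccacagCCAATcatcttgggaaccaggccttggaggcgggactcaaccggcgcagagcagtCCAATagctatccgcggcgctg
Pola1, chrX:93632156-93632405, minus strand: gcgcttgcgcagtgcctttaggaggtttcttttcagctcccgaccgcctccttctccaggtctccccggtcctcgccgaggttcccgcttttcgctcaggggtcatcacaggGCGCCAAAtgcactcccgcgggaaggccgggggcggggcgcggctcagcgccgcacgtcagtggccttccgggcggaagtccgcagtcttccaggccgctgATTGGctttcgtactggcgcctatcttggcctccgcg
Mcm6, chr1:128359706-128359955, minus strand: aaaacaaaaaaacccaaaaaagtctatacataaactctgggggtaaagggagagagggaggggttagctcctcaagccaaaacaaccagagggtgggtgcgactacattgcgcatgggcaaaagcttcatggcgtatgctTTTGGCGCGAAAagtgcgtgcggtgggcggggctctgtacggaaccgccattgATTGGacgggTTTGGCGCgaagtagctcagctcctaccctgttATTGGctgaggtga
Mcm5 held E2F letters 153 and 149 bases before its start, overlapping on opposite strands, and CCAAT letters at 77 and 22. Pola1 held E2F letters at 138 and CCAAT letters at 37. Mcm6 held E2F letters at 110, 106 and 47 and CCAAT letters at 57 and 14. The window of Rrm2 held CCAAT letters at 50 and no E2F letters. Over all windows, E2F letters stood in 8 of 51 windows of these genes (15.7%) and in 611 of 32851 windows of all genes (1.86%). They stood before 3 of the 17 higher genes with a window and 5 of the other 25. CCAAT letters stood in 24 of the 51 windows (47.1%) against 33.9% of all windows, before 10 of 17 higher genes and 13 of the other 25. CHR letters stood in 5 of the 51 windows (9.80%) against 16.0% of all windows.

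Cxcr3, the deleted gene, had processed intensities of 23.8, 33.0 and 27.0 in TGC3, against 68779, 66107 and 73352 in TG (log2 change -11.35 ± 0.12, SE, adjusted p = 9.8e-07). The deleted gene was low on every array labelled TGC3 and high on every array labelled TG. All 8 T cell markers were well above background on all 6 arrays. Between 58.9% and 63.9% of probes were well above background on TGC3 arrays and 60.0% to 61.4% on TG arrays. Pearson correlations over the genes tested were 0.993 to 0.994 among TGC3 arrays, 0.994 to 0.995 among TG arrays and 0.983 to 0.986 across groups. TGC3 arrays shared a slide and scan run and TG arrays shared the other, which means that effects of slide or scan and of genotype cannot be told apart. The p-values reflect only the spread among these 6 samples, which may be partly technical, and an exact permutation test of 3 against 3 cannot go below 0.1.

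Expression is given below as the scaled log2 signal, the log2 of the processed intensity minus the array's 75th percentile, so that 0 is the level of that percentile. Values run from array 1 to array 3 of a group, a change is the mean of TGC3 minus the mean of TG with its standard error, and a gene passed the test at an adjusted p under 0.05 over all 16416 genes (limma, Benjamini-Hochberg). Levels of different genes come from different probes and are not compared.

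As a set, replication and nucleotide genes were higher in TGC3. Of the 50, 22 rose (44%), against 16.7% of all genes tested, and 2 fell (Orc2 and Orc4, 4%), against 9.46% of all genes. The other 26 did not pass, with 32 of the 50 at an unadjusted p under 0.05. The change was above 0 for 45 of the 50, with a median of 0.35 (1.27-fold) against -0.01 over all genes, and it ranged from -0.36 (Orc4) to 1.26 (Rrm2). Rrm2 and Mcm10 were at least 2-fold higher. In these bulk samples, more cells in S phase and more of these mRNAs per cell cannot be told apart.

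The 3 TGC3 values lay above all 3 TG values for 32 genes (64%), against 24.3% of all genes, and below them for 2 (Orc2 and Orc4), against 22.4%. Dim genes on these arrays were more often higher in TGC3 than bright ones, so the count was also read by signal, a split chosen after seeing the data. Among genes above the median signal, 7.33% were higher and 12% lower, while 19 of the 42 replication and nucleotide genes there were higher and 2 lower, with a median change of 0.30 against -0.07 for all bright genes. Among genes below the median signal, 26% were higher, and 3 of the 8 replication and nucleotide genes there were higher.
Centring each array on its median in place of its 75th percentile moved every change by -0.18, which left 12 of the 50 higher and 2 lower: Gmnn, Mcm3, Mcm5, Gins1, Cdc7, Prim1, Prim2, Pold1, Pole and Rfc3 no longer passed. Over all genes it turned the share of calls that were higher to 27.5%, against 63.8% as reported. The median of the 50 genes was 0.36 above that of all genes under both. That difference could not change, since every gene moved by the same amount, so it is no check of the result. Leaving out TGC3 1, TGC3 2 or TGC3 3 gave 13, 17 and 16 higher genes (26%, 34% and 32%, against 12.1%, 14.4% and 12.4% of all genes). Leaving out TG 1 or TG 2 gave 5 each (10%, against 11.7% and 10.8%), no more than the share over all genes. Leaving out TG 3 gave 25 (50%, against 12.8%). Over these fits the median change stayed between 0.29 and 0.43. Mcm8, Gins2, Rfc4 and Rrm2 were the 4 of 24 genes past the threshold that passed without any 1 array.

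**Figure D1:**
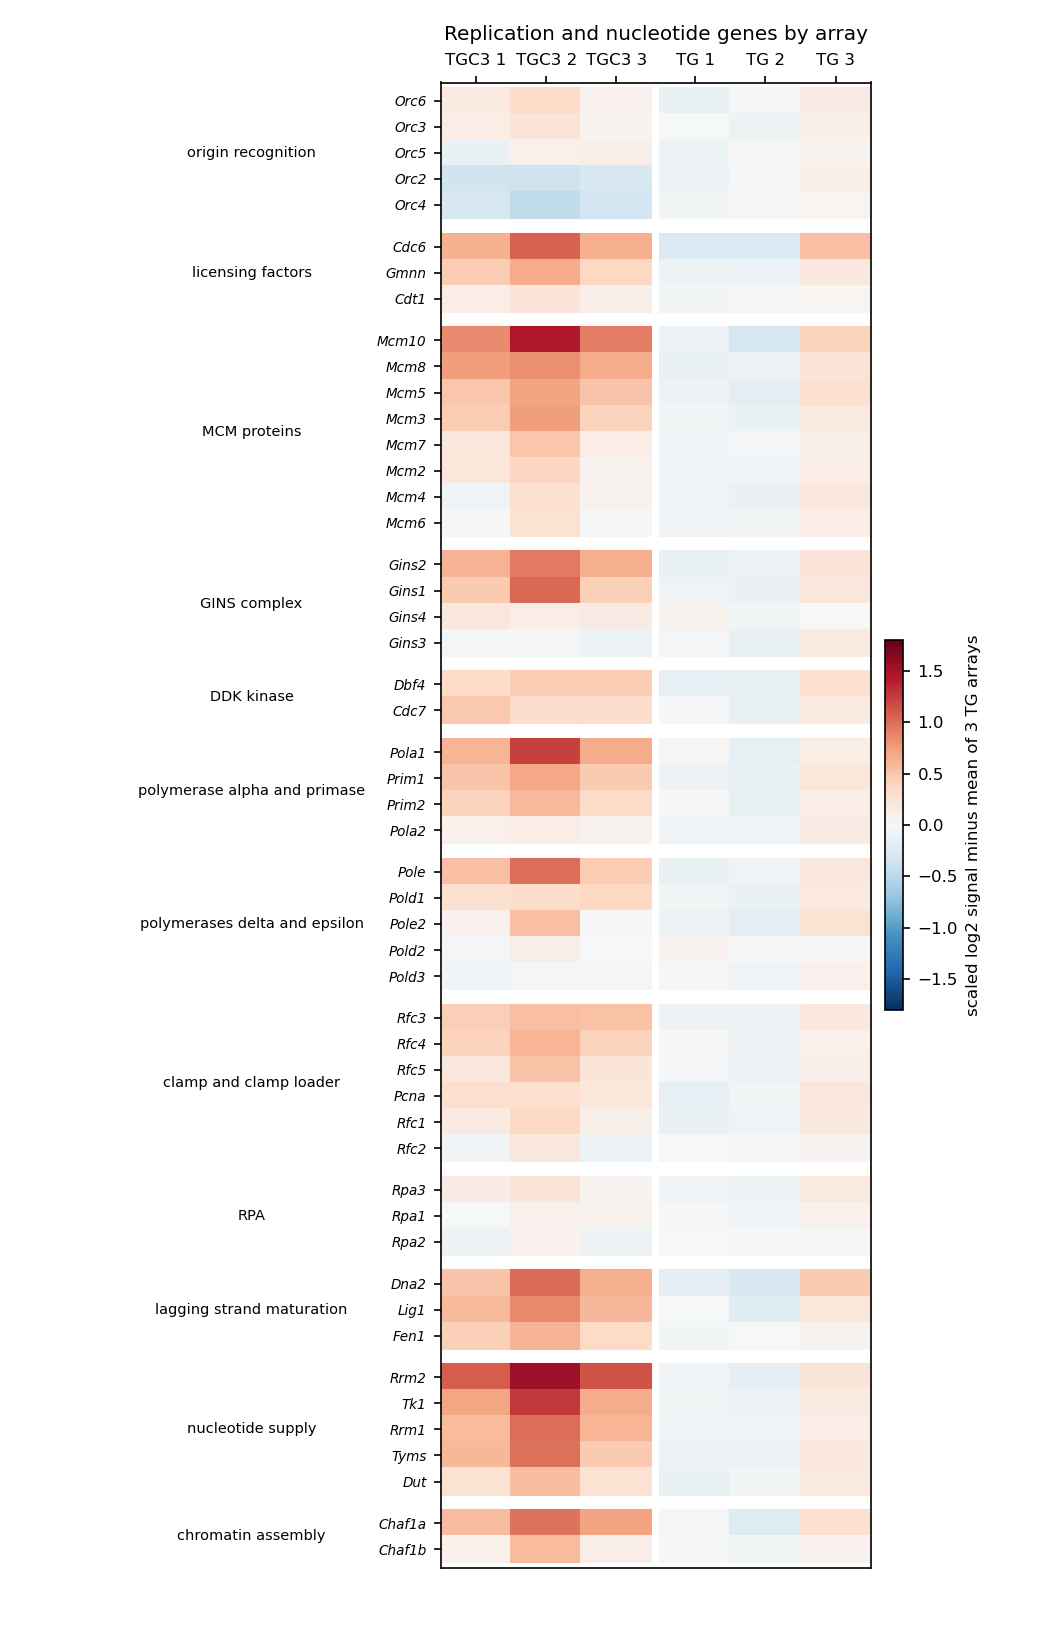
Heat map of the 50 genes (rows, grouped by role) on the 3 TGC3 arrays and the 3 TG arrays (columns); colour is the scaled log2 signal minus the gene's mean over the 3 TG arrays. TGC3 2 is the reddest TGC3 column and TG 3 the reddest TG column, and Orc2 and Orc4 are bluer in TGC3.

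Within each group 1 array stood above the others, as the heat map by array shows. TGC3 2 was the highest of the TGC3 arrays for 41 of the 50 genes, against 43.2% of all genes, and TG 3 was the highest of the TG arrays for 48 of 50, against 42.6%. Relative to each gene's TG mean, the 50 genes had a mean level of 0.30, 0.54 and 0.30 on the TGC3 arrays and -0.07, -0.10 and 0.17 on the TG arrays. All 3 TGC3 arrays lay above all 3 TG arrays on this measure. The median standard deviation within a group was 0.150 for these genes and 0.115 for all genes.

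Nucleotide supply was the role with the most genes past the test in proportion: 4 of its 5 genes rose, with a median change of 0.73. Rrm2 (probe at chr12:25398619-25398674, mm9), the small subunit of ribonucleotide reductase, had 0.46, 0.92 and 0.52 in TGC3 and -0.68, -0.79 and -0.39 in TG. Both groups were well apart, and the change of 1.26 ± 0.16 (2.39-fold, adjusted p = 0.00492) was the largest of the 50. Its partner Rrm1, the large subunit, had 2.36, 2.80 and 2.40 in TGC3 and 1.72, 1.71 and 1.92 in TG. For Rrm1 the change was 0.73 ± 0.14 (1.66-fold, adjusted p = 0.0138, and 0.0502 without TG 2). Tk1, the thymidine kinase of the salvage route, had 1.34, 1.90 and 1.29 in TGC3 and 0.57, 0.53 and 0.78 in TG. It rose by 0.89 ± 0.18 (1.85-fold, adjusted p = 0.0175), with 0.0566 to 0.0595 without TG 1 or TG 2. Tyms, thymidylate synthase, had 2.62, 3.02 and 2.50 in TGC3 and 1.92, 1.93 and 2.22 in TG, again without overlap. Its change was 0.69 ± 0.16 (1.61-fold, adjusted p = 0.0261), with 0.0559 to 0.0818 without TGC3 1, TG 1 or TG 2. Dut, the dUTPase that keeps uracil out of DNA, had 3.47, 3.77 and 3.48 in TGC3 and 3.09, 3.16 and 3.38 in TG. These did not overlap, but its change of 0.37 ± 0.12 did not pass (adjusted p = 0.0663).

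Origin recognition stood apart from the other roles, with 2 of its 5 genes lower, none higher and a median change of 0.02, which turned to -0.15 under median centring. Orc4 (chr2:48760743-48760802, mm9) had 1.24, 1.07 and 1.19 in TGC3 and 1.49, 1.53 and 1.57 in TG. It fell by 0.36 (SE 0.07, adjusted p = 0.0143), and its adjusted p was 0.0518 without TG 2. Orc2 (chr1:58520162-58520221, mm9) had 0.83, 0.82 and 0.90 in TGC3 and 1.08, 1.20 and 1.29 in TG. Its change of -0.34 ± 0.07 (adjusted p = 0.0227) missed the threshold without TGC3 1, TGC3 2, TGC3 3, TG 2 or TG 3 (0.0508 to 0.0734). Both genes code for core subunits of the complex, and every TGC3 value of each lay below every TG value. Orc6, the smallest subunit, had 2.44, 2.62 and 2.35 in TGC3 and 2.16, 2.25 and 2.43 in TG (change 0.19 ± 0.10, adjusted p = 0.225). Orc3 had 1.31, 1.41 and 1.23 in TGC3 and 1.17, 1.09 and 1.28 in TG (0.14 ± 0.08, adjusted p = 0.263). In both, TG 3 reached into the TGC3 range. Orc5 had a change of 0.02 (adjusted p = 0.856).

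Of the 3 licensing factors, Gmnn rose, and the median change was 0.50. Gmnn codes for geminin, which binds CDT1 and blocks a second round of licensing. It had 3.42, 3.63 and 3.33 in TGC3 and 2.87, 2.86 and 3.15 in TG, a change of 0.50 ± 0.12 (1.41-fold, adjusted p = 0.0271). Without TGC3 1, TGC3 2, TG 1 or TG 2 its adjusted p was 0.0557 to 0.0856. Cdc6, a loader of the helicase, had -1.06, -0.64 and -1.05 in TGC3 and -1.97, -1.97 and -1.17 in TG. TG 3 sat near the TGC3 values, and the change of 0.79 ± 0.25 did not pass (adjusted p = 0.0635), but did without TG 3 (0.0162). Cdt1 had 4.49, 4.58 and 4.45 in TGC3 and 4.30, 4.36 and 4.39 in TG (0.16 ± 0.06, adjusted p = 0.124).

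Among the 8 MCM proteins 4 genes rose, with a median change of 0.41 (0.23 under median centring). In the 6 subunits of the helicase ring, Mcm2 to Mcm7, 2 rose and the median was 0.25 (0.075 under median centring). The other genes of the role, Mcm8 and Mcm10, both rose. Mcm10 (chr2:4911845-4911904, mm9), a factor that binds the active helicase and polymerase alpha, had 1.11, 1.72 and 1.19 in TGC3 and 0.15, -0.05 and 0.68 in TG. Its change of 1.07 ± 0.24 (2.11-fold, adjusted p = 0.0238) missed the threshold without TGC3 3, TG 1 or TG 2 (0.0533 to 0.0728). Mcm8, which acts with MCM9 in DNA repair, had -0.99, -0.92 and -1.07 in TGC3 and -1.88, -1.85 and -1.52 in TG. Its change was 0.75 ± 0.11 (1.68-fold, adjusted p = 0.00749). Mcm5 had 3.42, 3.64 and 3.43 in TGC3 and 2.81, 2.72 and 3.21 in TG, a change of 0.58 ± 0.14 (1.5-fold, adjusted p = 0.032). Without TGC3 1, TGC3 2, TGC3 3, TG 1 or TG 2 the adjusted p of Mcm5 was 0.0668 to 0.0966. Mcm3 had 3.86, 4.15 and 3.81 in TGC3 and 3.34, 3.28 and 3.57 in TG, a change of 0.54 ± 0.12 (1.46-fold, adjusted p = 0.0254). Without TGC3 1, TG 1 or TG 2 it was 0.0528 to 0.08. The groups of all 4 genes were apart, with TG 3 the highest TG value in each. The other ring subunits had changes of 0.27 (Mcm7), 0.23 (Mcm2), 0.09 (Mcm4) and 0.08 (Mcm6), with adjusted p of 0.126, 0.176, 0.632 and 0.591.

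Of the factors that switch the helicase on, Gins2, Gins1 and Cdc7 rose, while Gins4, Gins3 and Dbf4 did not pass. Gins2 had -0.88, -0.57 and -0.85 in TGC3 and -1.63, -1.62 and -1.27 in TG (0.74 ± 0.13, 1.67-fold, adjusted p = 0.013). Gins1 had 0.32, 0.88 and 0.28 in TGC3 and -0.24, -0.28 and 0.05 in TG (0.65 ± 0.19, 1.57-fold, adjusted p = 0.049). Of all arrays, the omission of TGC3 2 alone kept Gins1 past the threshold (0.0635 to 0.136 without the others). It also missed it under 9 of 13 other settings, among them quantile normalization (0.0578), the deposited values (0.0574), cyclic loess (0.051) and median centring (0.0735). Gins4 had 1.84, 1.77 and 1.79 in TGC3 and 1.70, 1.59 and 1.64 in TG, and a change of 0.16 ± 0.06 (adjusted p = 0.104). Gins3 had 0.18, 0.17 and 0.09 in TGC3 and 0.17, 0.07 and 0.37 in TG, with overlapping groups and a change of -0.06 ± 0.09 (adjusted p = 0.669). Differences between genes of the complex were not tested. Cdc7, the kinase, had 0.48, 0.32 and 0.30 in TGC3 and -0.03, -0.15 and 0.15 in TG, and rose by 0.38 ± 0.10 (1.3-fold, adjusted p = 0.0381). It missed the threshold without TGC3 1, TGC3 2, TGC3 3, TG 1 or TG 2 (0.0632 to 0.108). Its activator Dbf4 had -0.22, -0.12 and -0.11 in TGC3 and -0.73, -0.70 and -0.29 in TG, with a change of 0.42 ± 0.13 (adjusted p = 0.0598, and 0.0126 without TG 3). By the brightest probe of each gene, the change of Dbf4 was no smaller than that of Cdc7. By those probes every TGC3 value lay above every TG value in both genes. A second, dimmer probe of Dbf4 went the other way, with every TGC3 value below every TG value. Its change was -0.19 and did not pass (limma, adjusted p = 0.121 over probes).

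**Figure D2:**
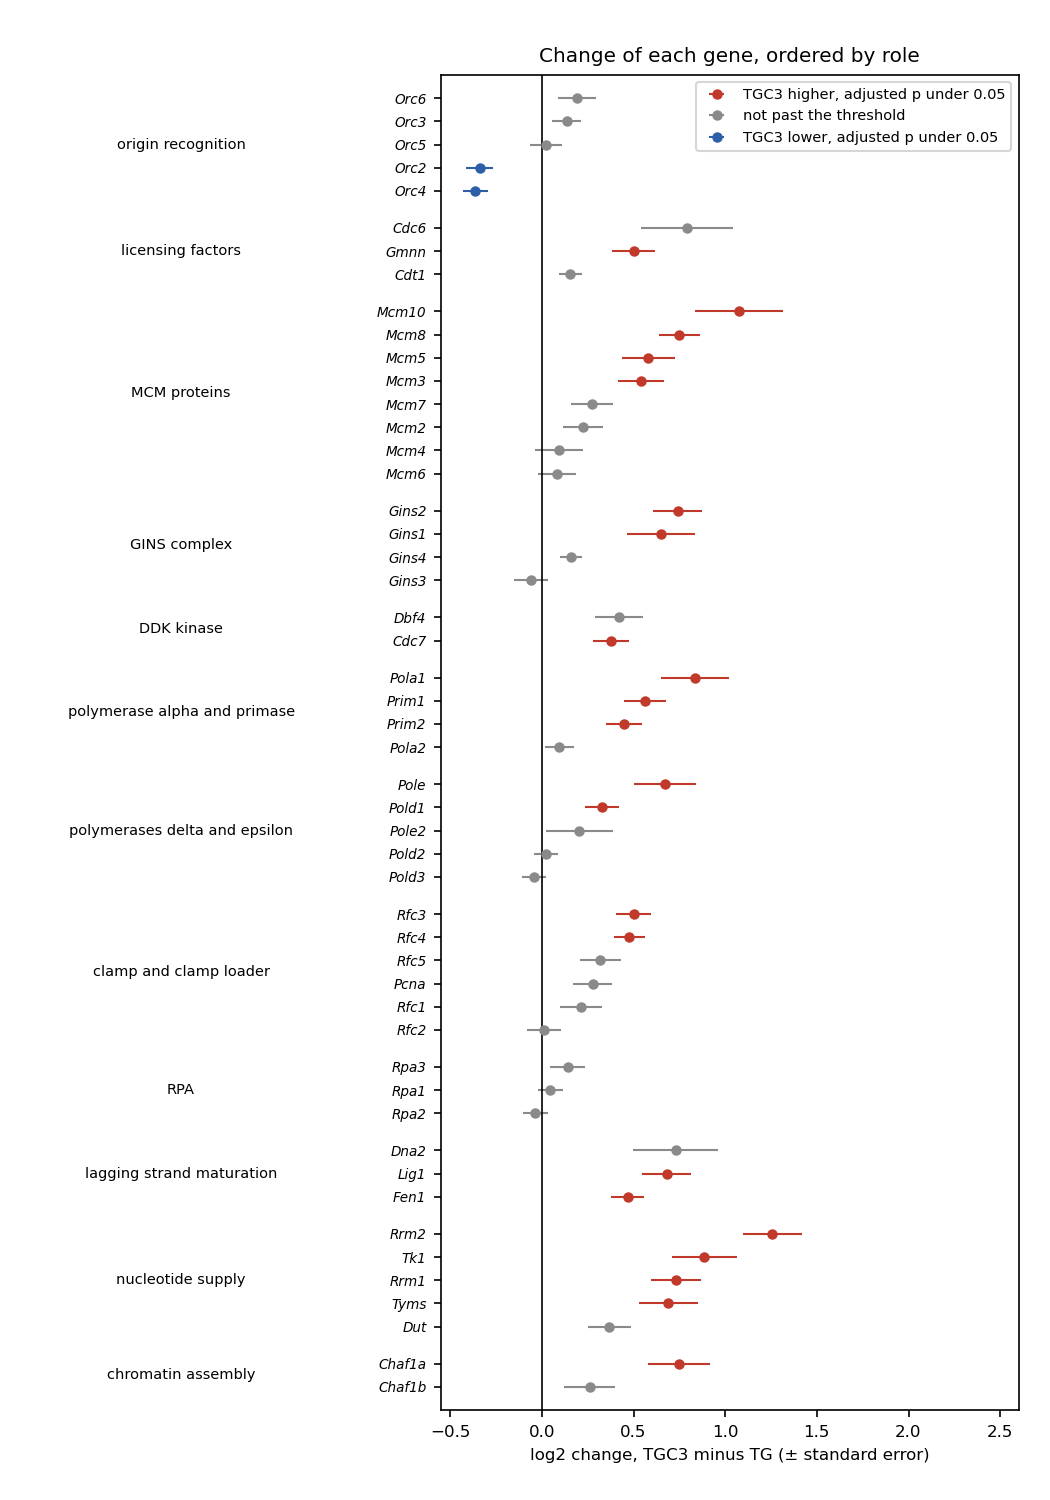
Change of each of the 50 genes (dots, with standard errors as bars) on a log2 scale, TGC3 minus TG, ordered by role; red genes rose, blue genes fell and grey genes did not pass. Red genes stand in 10 of the 12 roles, and the blue ones are Orc2 and Orc4.

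Polymerase alpha and primase, which start each new strand, had 3 of 4 genes higher and a median change of 0.51. Pola1 (chrX:90550189-90550248, mm9), the catalytic subunit, had 0.27, 0.90 and 0.33 in TGC3 and -0.31, -0.50 and -0.19 in TG. Its change was 0.84 ± 0.18 (1.78-fold, adjusted p = 0.0232, with 0.0642 to 0.0736 without TG 1 or TG 2). Prim1, the catalytic subunit of primase, had 2.98, 3.15 and 2.93 in TGC3 and 2.36, 2.33 and 2.68 in TG. It rose by 0.56 ± 0.12 (1.48-fold, adjusted p = 0.0186), with 0.0612 to 0.0622 without TG 1 or TG 2. Prim2, its partner, had 1.12, 1.28 and 1.05 in TGC3 and 0.71, 0.56 and 0.83 in TG, a change of 0.45 ± 0.10 (1.37-fold, adjusted p = 0.0226). Without TGC3 1, TG 1 or TG 2 that p was 0.0585 to 0.0659. The groups of these 3 genes did not overlap. Pola2, the regulatory subunit, had -2.24, -2.20 and -2.27 in TGC3 and -2.41, -2.40 and -2.18 in TG (0.10 ± 0.08, adjusted p = 0.422).

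For the polymerases that extend the strands, both catalytic subunits rose and the other 3 genes did not pass, with a median change of 0.20 that was 0.03 under median centring. Pole, of polymerase epsilon, had 1.60, 2.06 and 1.51 in TGC3 and 0.94, 0.97 and 1.26 in TG. Its change was 0.67 ± 0.17 (1.59-fold, adjusted p = 0.0331, with 0.0618 to 0.0986 without TGC3 1, TG 1 or TG 2). Pold1, of polymerase delta, had 3.05, 3.10 and 3.14 in TGC3 and 2.71, 2.65 and 2.94 in TG, a change of 0.33 ± 0.09 (1.25-fold, adjusted p = 0.0451). TG 3 lay nearest to TGC3 in both genes, and the adjusted p of Pold1 was 0.0874 to 0.131 without TGC3 1, TGC3 2, TGC3 3, TG 1 or TG 2. Pole2, an accessory subunit, had -0.15, 0.31 and -0.22 in TGC3 and -0.31, -0.41 and 0.05 in TG, with overlap (0.20 ± 0.18, adjusted p = 0.449). Pold3 had 2.17, 2.20 and 2.20 in TGC3 and 2.21, 2.16 and 2.33 in TG by its brightest probe (-0.04 ± 0.07, adjusted p = 0.658). Pold2 had a change of 0.02 (adjusted p = 0.826). Pole and Pold1 missed the threshold under median centring (adjusted p = 0.0526 and 0.289) and without the filter on dim probes (0.0751 and 0.104).

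Of the clamp and its loader, the loader subunits Rfc3 and Rfc4 rose, 2 of 6 genes, with a median change of 0.30. Rfc4, whose probe the files leave unmapped, had 2.12, 2.32 and 2.13 in TGC3 and 1.71, 1.62 and 1.80 in TG. Its change was 0.48 ± 0.08 (1.39-fold, adjusted p = 0.0122). Rfc3 had -0.63, -0.53 and -0.54 in TGC3 and -1.15, -1.16 and -0.88 in TG, a change of 0.50 ± 0.09 (1.41-fold, adjusted p = 0.0146, with 0.0514 to 0.0519 without TG 1 or TG 2). Both groups were tight relative to the difference. Rfc5 had 2.62, 2.95 and 2.65 in TGC3 and 2.40, 2.32 and 2.54 in TG, and its change of 0.32 ± 0.11 missed the threshold (adjusted p = 0.0847). Pcna (chr2:132075420-132075557, mm9), the sliding clamp and a common marker of dividing cells, had 5.32, 5.32 and 5.24 in TGC3 and 4.85, 4.97 and 5.23 in TG. TG 3 almost reached the TGC3 values, and the change of 0.28 ± 0.11 did not pass (1.21-fold, adjusted p = 0.103, and 0.0303 without TG 3). Rfc1 and Rfc2 had changes of 0.21 and 0.01 (adjusted p = 0.217 and 0.937).

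RPA, which coats single-stranded DNA, did not pass in any of its 3 genes, and 0 of them had an unadjusted p under 0.05 (limma). Rpa1 had 3.08, 3.17 and 3.15 in TGC3 and 3.06, 3.02 and 3.17 in TG (0.05 ± 0.07, adjusted p = 0.641). Rpa2 had 2.11, 2.28 and 2.11 in TGC3 and 2.19, 2.21 and 2.21 in TG (-0.04 ± 0.07, adjusted p = 0.73). Rpa3 had 2.04, 2.12 and 1.95 in TGC3 and 1.82, 1.80 and 2.07 in TG (0.14 ± 0.10, adjusted p = 0.324). The groups overlapped in each of them, and the median change of 0.05 turned to -0.13 under median centring.

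Lagging strand maturation had a median change of 0.68, with 2 of 3 genes higher. Lig1, the ligase that seals the fragments, had 3.32, 3.61 and 3.34 in TGC3 and 2.74, 2.53 and 2.95 in TG, a change of 0.68 ± 0.13 (1.6-fold, adjusted p = 0.0167, and 0.053 without TG 1). Fen1, the flap nuclease, had 1.22, 1.42 and 1.15 in TGC3 and 0.74, 0.78 and 0.86 in TG, a change of 0.47 ± 0.09 (1.38-fold, adjusted p = 0.0142, with 0.0513 to 0.0519 without TG 1 or TG 2). Neither gene's groups overlapped. Dna2, a nuclease for long flaps, had -2.38, -1.88 and -2.24 in TGC3 and -3.07, -3.18 and -2.43 in TG (0.73 ± 0.23, adjusted p = 0.0642, and 0.0237 without TG 3). The 2 chromatin assembly genes code for subunits of CAF-1, which places histones behind the fork. Chaf1a had 0.01, 0.43 and 0.18 in TGC3 and -0.58, -0.78 and -0.25 in TG. It rose by 0.75 ± 0.17 (1.68-fold, adjusted p = 0.024), with 0.0545 to 0.0718 without TGC3 2, TGC3 3, TG 1 or TG 2. Chaf1b had 2.67, 3.15 and 2.71 in TGC3 and 2.56, 2.54 and 2.66 in TG, close but without overlap (0.26 ± 0.14, adjusted p = 0.214).

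Several genes were read by more than 1 probe, which gives a second reading of the same RNA sample. Of the 80 probes, 73 passed the filter, and 17 genes had more than 1 of these. All probes of a gene gave the same call in 11 of the 17, when each probe was tested among 25125 probes, and differed in sign in 7. Among the 11, only Mcm8, Pold1 and Tyms were higher by every kept probe, and the others passed by none. In that test Gins1 missed the threshold by both of its probes. Pold3 had the widest split: its brightest probe (chr7:107230679-107230738, mm9) gave -0.04 (adjusted p = 0.675 over probes), while the probe at chr7:107231950-107232009 gave 0.65 (adjusted p = 0.00397). Another probe, shifted from that one by 1 base (chr7:107231949-107232008), gave 0.30 (adjusted p = 0.0446). With the probes of each gene averaged, Pold3 was higher by 0.30 (adjusted p = 0.0275).
The other 5 genes with unlike calls kept 1 sign over their probes. Cdc7 passed by its brightest probe (0.38, adjusted p = 0.0417 over probes) and not by 2 dimmer ones (0.19 and 0.01). For Mcm3 the brightest probe passed (0.54, adjusted p = 0.0274) and the other did not (0.32, adjusted p = 0.0862). Orc4 was lower by its brightest probe (-0.36, adjusted p = 0.0165), with -0.33, -0.17 and -0.08 by 3 others that did not pass. Dut and Dna2 went the other way: their brightest probes did not pass (0.37 and 0.73), and a second probe of each did (0.54, adjusted p = 0.0248, and 0.88, adjusted p = 0.0475). The choice of probe thus decided the call for these 6 genes.

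**Figure D3:**
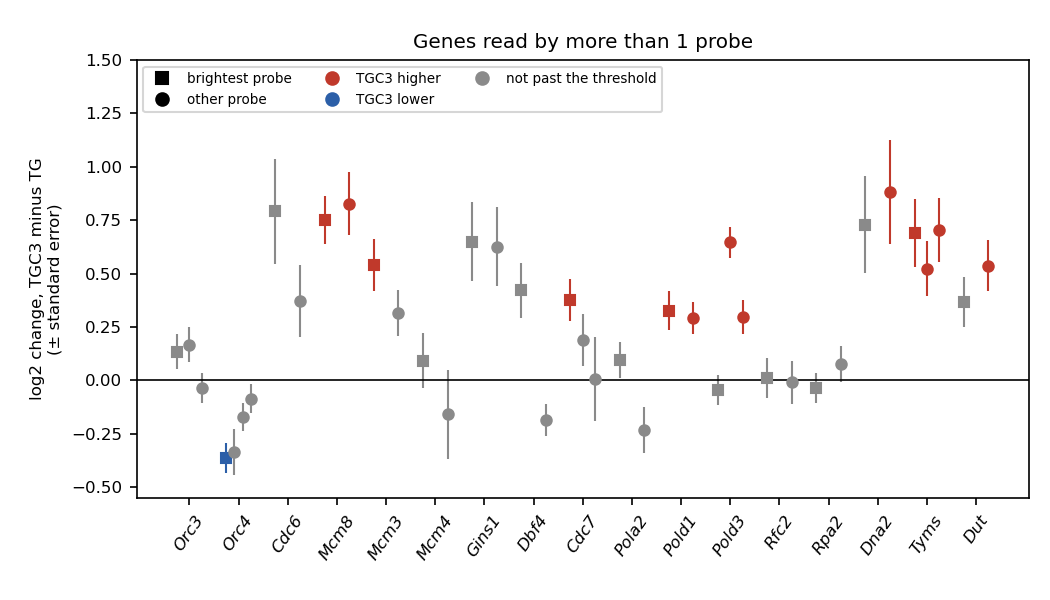
Change on a log2 scale, TGC3 minus TG, with standard errors, for every kept probe of the 17 genes read by more than 1 (squares, brightest probe; circles, other probes); colours give the call over all probes. The probes of Pold3 spread from -0.04 to 0.65.

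The rest of the pathway was read from 4 lists that hold none of the 50 genes. Of 29 other replisome and origin genes, 6 were higher (20.7%, near the 16.7% of all genes) and 1 lower (3.45%), with a median change of 0.19 that was 0.010 under median centring. Chtf18, of an alternative clamp loader, had 0.78, 0.88 and 0.73 in TGC3 and -0.18, -0.12 and -0.02 in TG (0.90 ± 0.07, adjusted p = 0.00169). The histone chaperone gene Asf1b (0.88 ± 0.17, adjusted p = 0.0152, and 0.0512 without TG 1) and Cdc45 of the active helicase (0.86 ± 0.17, adjusted p = 0.0163, and 0.0548 without TG 1) rose by like amounts. Orc1, the subunit of the origin complex not among the 50, rose by 0.84 ± 0.23 (adjusted p = 0.043), where Orc2 and Orc4 fell. Without TGC3 1, TGC3 2, TGC3 3, TG 1 or TG 2 its adjusted p was 0.077 to 0.115. The call of Orc1 was also lost under quantile normalization (0.106), the deposited values (0.105), cyclic loess (0.123), median centring (0.0604) and no filter (0.0906), and its change turned to -0.53 under normexp. Rnaseh2b, of an enzyme that removes ribonucleotides from DNA, rose by 0.65 ± 0.14 (adjusted p = 0.0203, with 0.0659 to 0.0662 without TG 1 or TG 2).

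Other deoxynucleotide genes showed no common direction: 3 of 17 were higher (17.6%) and 2 lower (11.8%), near the shares over all genes (16.7% and 9.46%), and the median was -0.06. Rrm2b, the reductase subunit used outside S phase, rose by 0.36 ± 0.09 (adjusted p = 0.035) and Shmt1, a folate enzyme, by 0.35 ± 0.09 (adjusted p = 0.039). The kinase genes Nme1 (-0.38 ± 0.09, adjusted p = 0.0327) and Dguok, which acts in mitochondria (-0.30 ± 0.08, adjusted p = 0.0402), fell. Each of these 4 missed the threshold when any of 5 of the 6 arrays was left out, with adjusted p up to 0.12.
De novo synthesis of purines and pyrimidines, which makes ribonucleotides, had 1 of 20 genes higher, none lower and a median of -0.03. The 1 was Pfas, with -0.98, -1.06 and -1.02 in TGC3 and -1.36, -1.52 and -1.57 in TG (0.46 ± 0.07, adjusted p = 0.00897). With its probes averaged the change of Pfas was 0.14 (adjusted p = 0.234), and under normexp it was 0.024 (adjusted p = 0.967). Of the list, 5 genes had an unadjusted p under 0.05 (limma).

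Genes of mitosis changed more. In that list 19 of 20 genes were higher, with a median change of 1.55 (2.93-fold), and all 20 had 3 TGC3 values above the 3 TG values. Cenpf, a kinetochore protein, had 0.80, 1.48 and 0.79 in TGC3 and -1.24, -1.25 and -0.85 in TG (2.14 ± 0.22, adjusted p = 0.00287). The kinase genes Plk1 (2.04 ± 0.20, adjusted p = 0.00274), Aurkb (1.89 ± 0.21, adjusted p = 0.00344) and Aurka (1.83 ± 0.14, adjusted p = 0.00169) and the spindle gene Nusap1 (2.12 ± 0.24, adjusted p = 0.00371) rose by like amounts. None of these 5 missed the threshold when 1 array was left out. The gene that did not pass was Ttk (1.81 ± 0.56, adjusted p = 0.0592). TGC3 2 was the highest TGC3 array and TG 3 the highest TG array for all 20 genes, the same arrays as for replication. The difference between the lists was not tested.

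**Figure D4:**
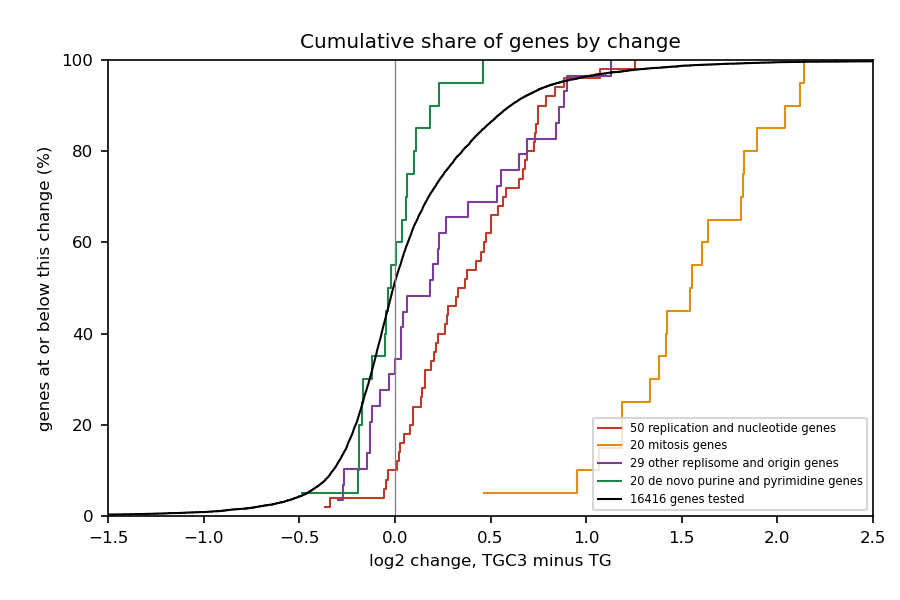
Cumulative share of genes (y axis, percent) at or below a given log2 change, TGC3 minus TG (x axis, cut at -1.5 and 2.5), for the 50 replication and nucleotide genes, 20 mitosis genes, 29 other replisome and origin genes, 20 de novo purine and pyrimidine genes and all 16416 genes. The curve of the 50 genes lies right of that of all genes (medians 0.35 and -0.01), and that of the mitosis genes furthest right (1.55).

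Markers of several other cell types were also higher on the TGC3 arrays. Over all genes tested, 16.7% were higher and 9.46% lower. Every tested neutrophil, macrophage, erythroid and liver endothelial marker lay below the median signal. Among all genes below it, 26% were higher and the median change was 0.15. Counts of few markers are to be read beside these shares. The summed level of each marker list is given in units of the array's 75th percentile. Neutrophil markers, of which 4 of 10 could be tested and 2 were higher, summed to 1.67, 8.19 and 3.12 in TGC3 and 0.209, 0.133 and 0.169 in TG, with Elane and Cxcr2 not well above background on any array. The 2 higher genes, S100a8 and S100a9, were well above background on 3 TGC3 arrays each and on 0 and 1 TG arrays. They passed the filter only through the TGC3 arrays, so their calls are not independent of it. Macrophage and monocyte markers (7 of 15 tested, 3 higher) summed to 1.30, 3.62 and 1.50 in TGC3 and 1.06, 0.852 and 0.981 in TG, with C1qa, C1qc and Timd4 among those not well above background on any array. Both sums were highest on TGC3 2, the TGC3 array that was also highest for replication genes. T cell markers, with sums of 684 to 742 in TGC3 and 750 to 840 in TG, had Cd3d and Cd3g lower among 8 and a median change of -0.17. B and plasma cell markers (5 of 10 tested, 3 higher and 1 lower) summed to 6.12 to 6.58 in TGC3 and 6.24 to 7.54 in TG, with Blk, Pax5 and Sdc1 not well above background. Ms4a1, 1 of the higher ones, also passed the filter only through TGC3 (well above background on 3 TGC3 and 0 TG arrays). Erythroid markers (4 of 8 tested, 2 higher) summed to 1.36 to 1.47 in TGC3 and 1.16 to 1.19 in TG, with Alas2, Klf1 and Ahsp among those not well above background. Liver endothelial markers (5 of 7 tested, 2 higher) summed to 0.790 to 0.868 in TGC3 and 0.653 to 0.750 in TG, with Lyve1 and Cdh5 not well above background. The erythroid and liver endothelial sums, like those of neutrophil and macrophage markers, did not overlap between groups and were higher in TGC3. T cell sums did not overlap either, and were lower in TGC3. The sums of the remaining lists, with B and plasma cell markers among them, overlapped. NK and innate lymphoid markers (9 of 9 tested, 2 higher and 1 lower) summed to 18.8 to 20.9 in TGC3 and 18.1 to 18.8 in TG. Of the higher ones, Il1rl1 was well above background on 3 TGC3 arrays and 1 TG array, and passed the filter only through TGC3. Dendritic cell markers (6 of 9 tested, 2 higher) summed to 20.6 to 27.9 in TGC3 and 22.3 to 28.1 in TG. Hepatocyte markers (1 of 13 tested, and higher) summed to 0.220 to 0.253 in TGC3 and 0.154 to 0.298 in TG, with 6 not well above background on any array. Of the CD4 T cell, cholangiocyte and stellate cell lists, 0, 1 and 0 genes were higher. The part of these cell types in the change of replication genes was not tested.

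**Figure D5:**
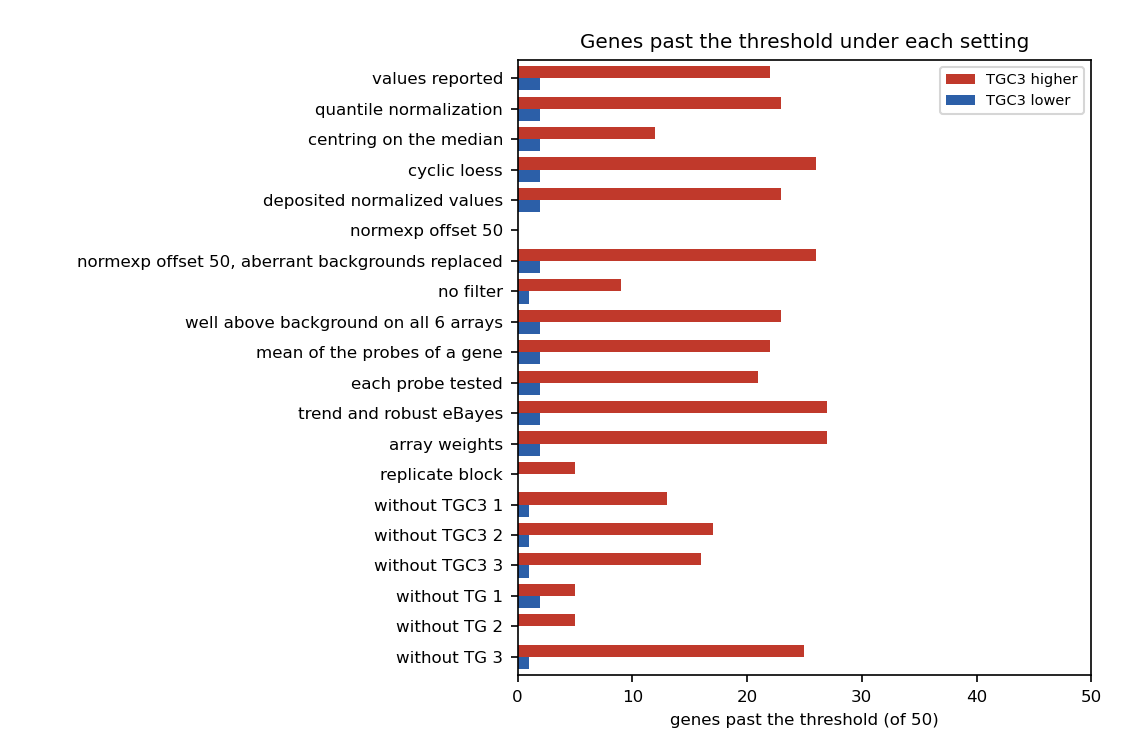
Number of the 50 genes past the threshold (bars, from 0) under the values reported and under each other setting; red bars are genes higher in TGC3 and blue bars genes lower. The number higher is 22 as reported (44%, against 16.7% of all genes) and 0 after normexp background correction, as over all genes. It is 5 without TG 1 or without TG 2 (10%, against 11.7% and 10.8% of all genes).

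The plot of settings shows how far the count of 22 depends on the choices made. Quantile normalization and the deposited normalized values gave 23 higher (46%, against 13.4% and 13.5% of all genes) and 2 lower. Under both, the median change of the 50 genes was 0.39. Trend and robust settings and array weights in limma each gave 27 higher and 2 lower, with medians of 0.35.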

How the data were processed

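Samples of liver CD8+ T cells were hybridised to 6 arrays of 45018 spots, and the labelled genotype put 3 in TGC3 and 3 in TG. The deposited processed intensity was background-subtracted and detrended within each array by Agilent Feature Extraction 10.7.3.1, without scaling across arrays, and the deposited mean and background intensities are raw, all per the file headers. The submitters' processing notes name version 10.7.1.1. The deposited matrix holds log2 values normalized by the authors in a way not stated, with the same median (5.57) in every column and a correlation of 0.999 to 1.00 with the log2 processed signals. Its scale and direction follow from that match, its centring method is not given, and it served as an alternative.

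Of 41174 non-control probes, spots of 1 probe were averaged on the log2 scale and 11 probes were left out for outlier flags, with 0 saturated spots. Each array's 75th percentile was subtracted. A probe was kept if 3 or more of the 6 arrays called it well above background (25125 probes), and each gene, by the name in the files, was read by its brightest kept probe (16416 genes). The probe read for each of the 50 genes was well above background on all 6 arrays. No probe counts exist, so that the number of arrays limits the precision. The files give probe positions in mm9. Exon or UTR annotation of the probes was not used here.

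Groups were compared, two-sided, with limma 3.58.1 (lmFit and eBayes) in R 4.3.3, with Benjamini-Hochberg adjustment over all genes and a threshold of 0.05. The same steps were tested on simulated data. Figures were drawn with matplotlib 3.10.9 in Python 3.11.15. The 50 genes, the other lists, the tests and the alternatives were chosen with earlier results of these data known. Named with array values were up to 4 genes of each role with the largest changes, genes whose probes disagreed in call, up to 5 genes past the threshold of each pathway list, and Cxcr3. At most 2 genes of each marker list were named, beside those not above background on any array. Promoter windows came from RefSeq (GRCm38.p6). A few genes of the pathway and marker lists are counted but not reported by name here.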

Additional observations from a re-analysis of the deposited data

How the results depend on the processing

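Under centring on the median, 12 of the 50 genes were higher (median change 0.17), and over all genes 1805 were higher and 4770 lower. Role medians were then -0.15 for origin recognition and -0.13 for RPA, both reversed, and 0.03 for polymerases delta and epsilon, 0.32 for licensing factors, 0.23 for MCM proteins, 0.23 for GINS, 0.22 for the CDC7 kinase, 0.12 for the clamp and its loader and 0.51 for lagging strand maturation. Those of the other lists were -0.20 for de novo synthesis, -0.23 for other deoxynucleotide genes and 0.010 for other replisome genes. This setting moves every gene by the same amount.

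With normexp background correction (offset 50), limma called 0 of the 50 genes higher and 0 lower, with 18 at an unadjusted p under 0.05 and a median of 0.55. Over all genes it called 0 higher and 1 lower, with 504 at an unadjusted p under 0.05. TG 3 had 7 spot backgrounds over 10 times its median, and with these replaced 26 were higher and 2 lower. Under plain normexp the role medians were -0.063 for origin recognition (reversed), 0.63 for MCM proteins, 0.62 for the clamp, 0.43 for RPA, 0.57 for lagging strand maturation and 1.02 for nucleotide supply. Those of de novo synthesis (0.20) and other deoxynucleotide genes (0.18) reversed, as did Orc1 (-0.53), Nme1 (0.053), Rrm2b (-0.30), Shmt1 (-0.43) and Dguok (0.075). Lagging strand maturation had 0.45 with the backgrounds replaced, and RPA 0.12 under cyclic loess.

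Without the filter on dim probes, 9 of the 50 were higher (18%, against 7.64% of all genes) and 1 lower, and 579 of all genes were lower. Orc2, Gmnn, Mcm3, Mcm5, Mcm10, Gins1, Cdc7, Pola1, Prim1, Prim2, Pold1, Pole, Tyms and Chaf1a no longer passed there. Array weights gave 2410 lower genes. With probes averaged, the CDC7 kinase median was 0.15 and Pold3 was higher by 0.30. The cause of these shifts was not tested.

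Arrays with the same number did not deviate together over all genes (correlations -0.003, -0.076 and -0.099). That check cannot show whether samples with the same number were collected or processed together. With the replicate block 5 of the 50 were higher and 0 lower (28 with an unadjusted p under 0.05, 2 of them lower), against 1809 higher and 557 lower over all genes. Leaving out each array in turn gave 5 to 25 of the 50 higher (10% to 50%) and 0 to 2 lower, with fewer samples in each fit. Of all genes, 1767 to 2369 were then higher (10.8% to 14.4%) and 570 to 1507 lower. The other settings kept the count of 22 within 1.5 times. A block for slide could not be fitted, since each slide holds 1 group.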

Other observations

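The histone chaperones Asf1b and Asf1a, which hand histones to new chromatin, passed the test in opposite directions: Asf1b had 2.82, 3.18 and 2.75 in TGC3 and 2.00, 1.79 and 2.31 in TG, while Asf1a had 2.61, 2.69 and 2.60 in TGC3 and 2.88, 2.92 and 2.99 in TG (change -0.30 ± 0.06, limma, adjusted p = 0.02). Asf1a was named after its values were seen, as the 1 lower gene among the other replisome genes. The difference between these genes was not tested.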
